A study of Mus musculus with 8 samples.

Results

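The loci of 10 genes that mark embryonic stem cells or take part in reprogramming were examined for OCT4 binding: Zfp42, Utf1, Dppa2, Dppa4, Dppa5a, Tdh, Sall4, Lin28a, Mycn and Jarid2. Every entry of the OCT4 peak lists that lay inside the GRCm38 span of one of these genes, or within 100 kb of either end, was taken. This gave 46 of the 20955 entries of the 6 lists, for 10 of the 21887 protein-coding genes on the autosomes, X and Y. OCT4 was profiled by CUT&RUN, in which an antibody brings a nuclease to bound DNA and the released fragments are sequenced. The cells were untreated male mouse embryonic stem cells (mESCs) of the E14 line, labelled C57BL/6J, grown without feeder cells in N2B27 medium with 2i inhibitors. Each of 3 library preparations was made in duplicate, numbered 1 and 2: conventional libraries, which are blind to cytosine modification, bisulfite libraries, of which only methylated reads were used, and hmC-Seal libraries, which enrich fragments holding 5-hydroxymethylcytosine and whose reads were all taken as hydroxymethylated. Bisulfite treatment does not tell 5-methylcytosine from 5-hydroxymethylcytosine, so a read counted as methylated can hold either. Libraries with a control IgG antibody came from the same untreated cells and served as the background for peak calling, and their own profiles were not analysed here. The IgG libraries were 1 conventional and 1 bisulfite, and which of them was set against the hmC-Seal libraries is not given in the sources used here.

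OCT4, the product of Pou5f1, is a POU-domain transcription factor that keeps embryonic stem cells undifferentiated, and it binds an octamer sequence, often beside SOX2. It is one of the factors whose forced expression returns somatic cells to pluripotency. Zfp42, Utf1 and the Dppa genes are expressed in pluripotent cells and fall silent on differentiation, and have long served as markers. Bound DNA can carry 5-methylcytosine, which TET enzymes oxidise to 5-hydroxymethylcytosine, often at active enhancers.

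Listed by replicate number, the conventional libraries hold 227 and 265 entries, the bisulfite libraries 2797 and 2077, and the hmC-Seal libraries 3974 and 11615. An entry is a peak summit with its fold and its −log10 q. The fold is the enrichment over the background of the peak caller, and q is the false discovery rate of that caller. Peaks were called against IgG, but for some entries the background was estimated at the genome-wide level (genome background). Both conventional entries at Jarid2 were among these. Each library was called separately, so folds are on each list's own scale, and rank 1 is the highest −log10 q of a list. The mean coverage of the genome by the fragments used, estimated from folds and p-values, was in the same order 0.347 and 0.302 for conventional, 0.825 and 0.887 for bisulfite, and 0.717 and 0.156 for hmC-Seal. An entry of hmC-Seal replicate 1 rested at the median on an estimated 18 fragments, and an entry of replicate 2 on 5. Where several numbers of fragments fitted a fold and its p-value, as for 3 of the 46 entries, that at the genome background or else the smallest was taken. Thus hmC-Seal replicate 2 stood apart, with the longest list and the lowest coverage, and sums or means over both hmC-Seal libraries pool unlike lists. Entries of different libraries that overlapped by at least 1 bp were joined into a place.

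The 46 entries formed 27 places, of which 20 were called in a single library, 1 in 2 libraries, 5 in 3 libraries and 1 in all 6. The place in all 6 libraries lies upstream of Jarid2, and the other recurring places lie near Zfp42, Utf1, Mycn and within Jarid2. Conventional libraries contributed the Jarid2 place and no other. Of the places found in a single library, 9 came from hmC-Seal replicate 1, 7 from hmC-Seal replicate 2, 3 from bisulfite replicate 1 and 1 from bisulfite replicate 2. Among all 15828 places on the chromosomes, 2329 (14.7%) were called in at least 2 libraries, and among the 27 near these genes 7 (25.9%) were. In at least 2 preparations, the shares were 9.95% of all places and 22.2% of those near the genes. These shares pool the lists in different proportions, since hmC-Seal replicate 2 had 11181 of the 15828 places and 13 of the 27. What this adds to the difference was not tested. Of the 27 places, 8 (29.6%) had a summit within 5 kb of a gene start, 11 (40.7%) within 10 kb and 22 (81.5%) within 50 kb, while these distances take up 4.77%, 9.53% and 44.2% of the length of the joined windows. Counted as pairs of a gene and a place in its window, the shares were 28.6%, 39.3% and 78.6% of 28 pairs, against 3.93%, 7.97% and 40.6% of the 33625 pairs of the 21142 protein-coding genes with a known strand. The counts near gene starts rest largely on hmC-Seal replicate 1, which called all 8 places within 5 kb. Only a place near Utf1 and a place upstream of Mycn among them were called in another library too. Of the 11 within 10 kb, only a place upstream of Jarid2, in hmC-Seal replicate 2 alone, lacked an entry of hmC-Seal replicate 1. The shares of the 33625 pairs rest on places of which hmC-Seal replicate 2 had most, and were not counted for hmC-Seal replicate 1 alone. Regions of hmC-Seal replicate 1 overlapped 88 of all 32851 promoters and those of replicate 2 overlapped 60, from lists of 3974 and 11615 entries. The part of the library in the difference from all protein-coding genes was not tested. Summits inside the gene occurred in 5 of the 28 pairs (17.9%, against 16.4% for all those genes), and at 17 of the 27 places (63%, against 56.8% of all places) every summit lay outside all annotated genes.

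**Figure D1:**
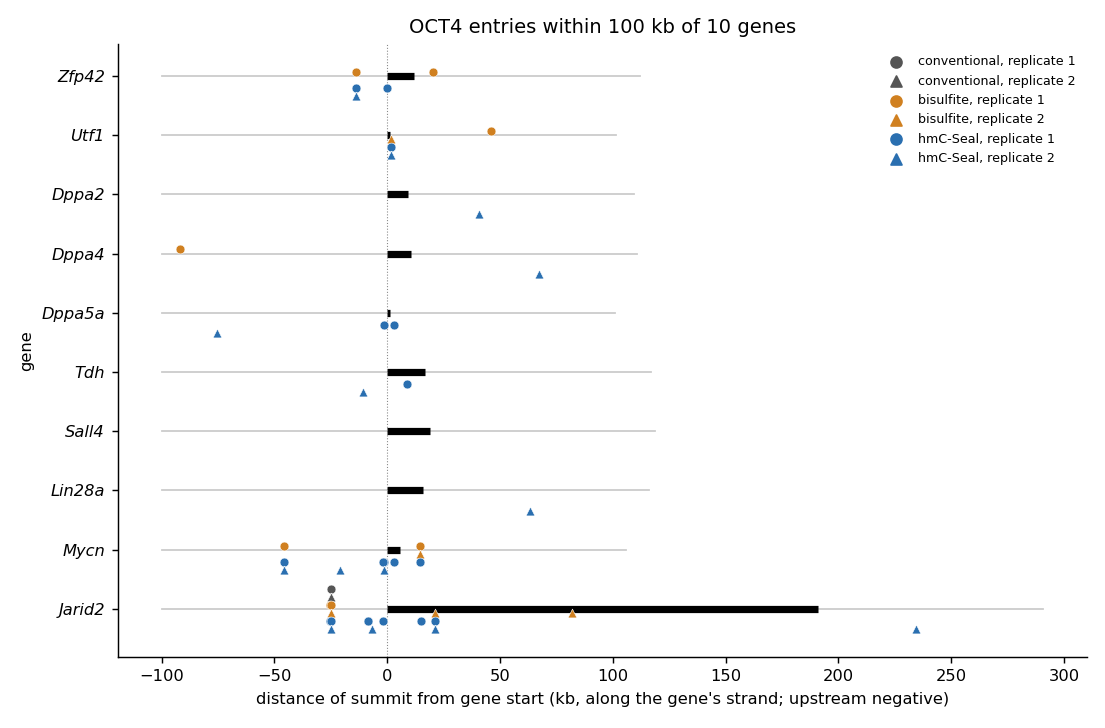
Summits of OCT4 entries by distance from the gene start in kb along the gene's strand, for 10 genes and 6 libraries; black bars are gene spans, grey lines the windows of 100 kb on either side, and colour and shape give preparation and replicate. Conventional entries appear upstream of Jarid2 alone, and Sall4 has no entry.

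Zfp42 encodes REX1, a zinc finger protein long used as a marker of undifferentiated mESCs. It lies on chromosome 8 from 43295067 to 43307009, on the minus strand, and held 2 entries in bisulfite replicate 1, 2 in hmC-Seal replicate 1 and 1 in replicate 2. Its recurring place, from 43320789 to 43321046, is outside annotated genes, 13801 to 13924 bp upstream of the gene start. The fold enrichment there was 5.14 in bisulfite replicate 1 (rank 2286 of 2797), 5.76 in hmC-Seal replicate 1 (rank 2937 of 3974) and 3.94 in replicate 2 (rank 7987 of 11615). All 3 entries thus stood in the lower part of their lists, the last with an estimated 4 fragments. A stronger entry, named after its values were seen, lay in bisulfite replicate 1 from 43286771 to 43286873, 8243 bp past the 3′ end, with a fold of 17.3 and rank 64.

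The second Zfp42 entry of hmC-Seal replicate 1, likewise named after its values were seen, overlapped the promoter. It spans 84 bp from 43307141 to 43307224, with its summit 170 bp upstream of the gene start, a fold of 8.56, rank 1901 of 3974 and an estimated 16 fragments. The promoter window of 250 bases before and 50 bases after the start is shown because it was the only promoter of these genes in the sequence table that overlapped an entry of any of the 6 lists. It is taken from RefSeq on GRCm38.p6 at chr8:43306960-43307259, minus strand, with the octamer in capitals.
Zfp42 promoter: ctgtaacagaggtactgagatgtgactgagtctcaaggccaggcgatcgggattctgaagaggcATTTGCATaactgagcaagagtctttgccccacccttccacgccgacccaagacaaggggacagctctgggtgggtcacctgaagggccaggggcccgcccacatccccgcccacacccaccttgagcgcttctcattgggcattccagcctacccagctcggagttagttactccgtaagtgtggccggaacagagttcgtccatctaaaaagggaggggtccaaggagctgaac
The octamer ATTTGCAT starts at position -186 from the gene start, inside the called stretch and 9 bp from the summit. The called stretch holds 4 CpG dinucleotides, and the whole promoter 11, against a median of 7 over all promoters. Promoters were matched for 5 of the 10 genes, Zfp42, Utf1, Lin28a, Mycn and Jarid2, the last with more than 1 start. Of their 6 windows 1 overlapped a region of hmC-Seal replicate 1, against 88 (0.268%) of all 32851 windows. In the other libraries the share of all windows ran from 0.0244% to 0.183%. Searched as ATTTGCAT on both strands, the octamer was found in 1 of the 6 windows of these genes and in 570 (1.74%) of all 32851 windows of the same length. Among promoters of any gene that overlapped a region, those holding it numbered 4 of 8 (50%) in each conventional library, 8 of 19 (42.1%) and 6 of 18 (33.3%) in bisulfite replicates 1 and 2, and 25 of 88 (28.4%) and 9 of 60 (15%) in the hmC-Seal replicates. A match describes these letters and does not show a site in use.

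Utf1, a chromatin-associated factor of undifferentiated embryonic cells, lies on chromosome 7 from 139943856 to 139945112, on the plus strand. It had 1 entry in each bisulfite and hmC-Seal library. Those of bisulfite replicate 2 and of both hmC-Seal libraries fell into a single place just past the 3′ end, with summits 576 to 599 bp beyond it and 1832 to 1855 bp from the gene start. By rank this place was the best of any near the genes in hmC-Seal replicate 2, at 1432 of 11615, and stood at 926 of 3974 in replicate 1 and 656 of 2077 in bisulfite replicate 2. The summits of both hmC-Seal libraries fell on the same base. The entry of bisulfite replicate 1 was elsewhere, 45849 bp from the gene start inside Adam8, and was named after its values were seen. It had rank 159 of 2797 and an estimated 76 fragments but a fold of 5.97.

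Dppa2 and Dppa4 encode partner proteins that bind chromatin and help keep developmental promoters free of DNA methylation. The genes are neighbours on chromosome 16, from 48310274 to 48319513 and from 48283735 to 48294292, and their windows overlap. A single entry, from 48350919 to 48351007, lay in both windows, 40650 bp from the start of Dppa2 and 67189 bp from that of Dppa4. It was called in hmC-Seal replicate 2 with a fold of 3.46 and an estimated 3 fragments, the smallest number in that list. Its rank of 8501 was shared by 2815 entries with the same −log10 q of 1.48. The window of Dppa4 also held an entry of bisulfite replicate 1 from 48191700 to 48191788, 92000 bp upstream, with a fold of 7.69 and rank 1270 of 2797.

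Dppa5a, which encodes a KH-domain RNA-binding protein, lies on chromosome 9 from 78367052 to 78368199, on the minus strand. Its place of highest −log10 q, from 78369497 to 78369632, was 1355 bp upstream of the gene start in hmC-Seal replicate 1, with a fold of 9.29, rank 1355 of 3974 and an estimated 19 fragments. The other entries of its window, 1 in each hmC-Seal library, had folds of 5.65 and 7.08 and lay 3205 and 75370 bp from the gene start, so that the libraries shared no place here.

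Tdh encodes threonine dehydrogenase, a mitochondrial enzyme on which mESCs depend for growth, and lies on chromosome 14 from 63492347 to 63509092, on the minus strand. Its place of highest −log10 q was inside the gene, from 63500322 to 63500501 and 8647 bp from the start, in hmC-Seal replicate 1 with a fold of 7.80 and rank 2038 of 3974. The span of Gm17232 covers the same position. The remaining entry, in hmC-Seal replicate 2, lay 10623 bp upstream within Mtmr9 with a fold of 3.46 and an estimated 3 fragments.

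Lin28a encodes an RNA-binding protein that blocks the maturation of a family of microRNAs, and Sall4 a zinc finger transcription factor of early embryonic cells. Lin28a lies on chromosome 4 from 134003330 to 134019196, and its window held 1 entry, in hmC-Seal replicate 2 from 133955825 to 133955917. This entry was 63323 bp from the gene start, nearer to Hmgn2, with a fold of 5.19 and an estimated 5 fragments. Sall4, on chromosome 2 from 168748332 to 168767201, had no entry in its window of 218870 bp in any of the 6 lists. At the density of entries on its chromosome, 1.65 entries would lie in that window over the 6 lists.

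Mycn encodes a transcription factor of the MYC family and lies on chromosome 12 from 12936093 to 12941836, on the minus strand. It had 11 entries, 5 in hmC-Seal replicate 1, 3 in replicate 2, 2 in bisulfite replicate 1 and 1 in bisulfite replicate 2, which formed 6 places. The strongest, from 12927241 to 12927410, lay 8766 to 8808 bp past the 3′ end and outside annotated genes. Its fold was 17.8 in hmC-Seal replicate 1 (rank 242 of 3974), 12.4 in bisulfite replicate 1 (rank 284 of 2797) and 6.90 in bisulfite replicate 2 (rank 973 of 2077). It was absent from the list of hmC-Seal replicate 2, which has the lowest estimated coverage but called other places near Mycn. The reason for its absence was not tested.

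Upstream of Mycn, a place from 12943301 to 12943480 had summits 1561 and 1565 bp before the gene start, and its fold was 7.72 in hmC-Seal replicate 1 and 3.43 in replicate 2, where it rested on an estimated 3 fragments. A further place, from 12987527 to 12987717, lay 45765 to 45840 bp upstream within Gm35208. The fold there was 9.81 in hmC-Seal replicate 1 (rank 1085 of 3974), 6.05 in replicate 2 (rank 2659 of 11615) and 5.14 in bisulfite replicate 1 (rank 2286 of 2797). The other 3 places of Mycn were called in a single hmC-Seal library each, with folds from 5.75 to 7.90.

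Jarid2 encodes an accessory subunit of Polycomb repressive complex 2, which methylates histone H3 at silent developmental genes. It is the longest of the genes, on chromosome 13 from 44730774 to 44921643 on the plus strand, and its window of 390870 bp held 18 entries in 8 places. The place called in all 6 libraries, from 44705320 to 44705856, lies outside annotated genes, with the main summit of every library between 25021 and 25081 bp upstream of the gene start. At the main summit, the conventional libraries had folds of 8.18 and 9.24, the bisulfite libraries 14.0 and 16.1, and the hmC-Seal libraries 21.5 and 7.87, by replicate number. In rank it stood at 86 of 227 and 79 of 265 in the conventional lists, at 127 of 2797 and 40 of 2077 in the bisulfite lists, and at 86 of 3974 and 1628 of 11615 in the hmC-Seal lists. It was thus near the top of both bisulfite lists and of hmC-Seal replicate 1, with an estimated 35, 44 and 52 fragments, and rested on 13 fragments in each conventional library and on 9, the smaller of 2 solutions, in hmC-Seal replicate 2. A weaker summit of the same place, 25394 to 25419 bp upstream, was listed in bisulfite replicate 1 with a fold of 5.83 and in hmC-Seal replicate 1 with 6.30. Only 56 of the 15828 places on the chromosomes were called in all 6 libraries.

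Inside Jarid2, a place from 44751819 to 44752005 had summits 21127 to 21160 bp from the gene start. The fold was 10.6 in hmC-Seal replicate 1 (rank 852 of 3974), 4.72 in replicate 2 (rank 5437 of 11615) and 5.83 in bisulfite replicate 2 (rank 1443 of 2077). Only gene spans were used, so the place was not assigned to an exon or an intron. The 6 remaining places of the Jarid2 window were called in a single library each, with folds from 3.46 to 7.08.

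**Figure D2:**
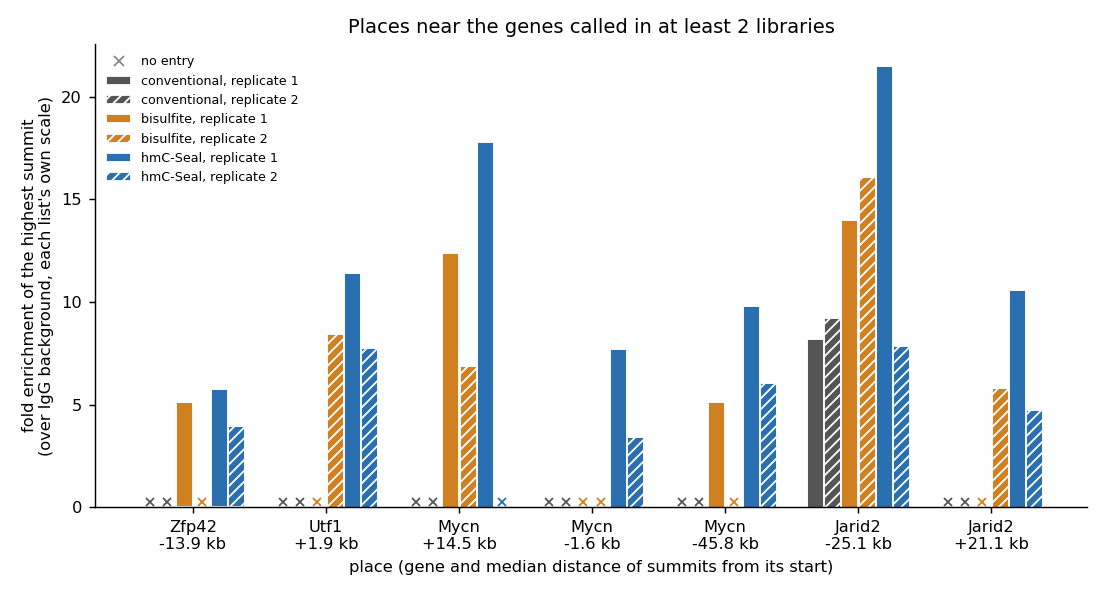
Fold enrichment over the background of the peak caller (IgG or the genome background) at the highest summit of each of the 7 places near the genes that were called in at least 2 libraries; bars are single libraries, hatched for replicate 2, and a cross marks a library with no entry. Each list has its own scale, and the Jarid2 place upstream of the gene has a bar for every library, from 7.87 to 21.5.

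Within their lists, the entries near these genes spread widely in rank, from 1.93% to 95% of a list. Of the 18 entries of hmC-Seal replicate 1, 4 stood in the best 25% of the list by −log10 q and 9 in the lower part beyond 50%, with a median rank at 50.3% of the list. In hmC-Seal replicate 2 these numbers were 5 and 6 of 13, with a median at 46.8%, and in bisulfite replicate 1 they were 4 and 3 of 8, with a median at 27.8%. Bisulfite replicate 2 had 1 and 2 of its 5 entries in these parts. The median fold of the entries near the genes was 7.76 against 6.97 for the whole list in hmC-Seal replicate 1, 4.72 against 4.32 in replicate 2, 6.83 against 5.91 in bisulfite replicate 1 and 6.90 against 6.26 in bisulfite replicate 2.

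**Figure D3:**
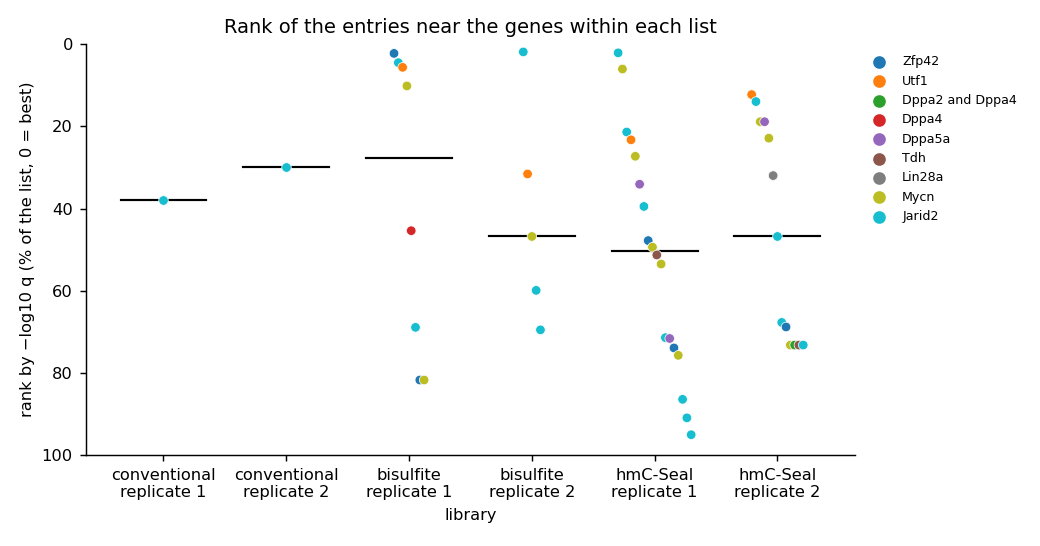
Rank by −log10 q of each entry near the genes as a percentage of its list, with the best rank at the top; points are entries coloured by gene and black lines are medians of each library, and the entry that Dppa2 and Dppa4 share is drawn once. The medians lie between 27.8% and 50.3%.

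Shares of genes with a nearby region were set beside those of all protein-coding genes. In conventional replicates 1 and 2, 1 of the 10 genes, Jarid2, had a region within 100 kb, against 2.03% and 2.32% of all protein-coding genes. In bisulfite replicates 1 and 2, 5 and 3 of the 10 did, against 21.8% and 17.3%. In hmC-Seal replicate 1, 6 of the 10 did, against 30.6%, and in hmC-Seal replicate 2, 9 of the 10 did, against 64.1%. The windows were of like length, with a median of 211250 bp for these genes and 217169 bp for all protein-coding genes.

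Within 10 kb of the gene span, no gene had a region in conventional replicates 1 and 2 (0.493% and 0.525% of all protein-coding genes). Bisulfite replicate 1 had regions at Zfp42 and Mycn (2 of 10, against 5.5%), and bisulfite replicate 2 at Utf1, Mycn and Jarid2 (3 of 10, against 4.29%). In hmC-Seal replicate 1, Zfp42, Utf1, Dppa5a, Tdh, Mycn and Jarid2 had one (6 of 10, against 8.18%), and in hmC-Seal replicate 2 Utf1, Mycn and Jarid2 did (3 of 10, against 20.6%).

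A place called in both replicates of a preparation is less dependent on 1 library. Such a place lay within 100 kb of Jarid2 in the conventional libraries (1 of 10 genes, against 1.08% of all protein-coding genes), of Mycn and Jarid2 in the bisulfite libraries (2 of 10, against 9.63%), and of Zfp42, Utf1, Mycn and Jarid2 in the hmC-Seal libraries (4 of 10, against 10.5%). The last 4 genes also had a place in at least 2 preparations (4 of 10, against 15.1%), and Jarid2 had one in all 6 libraries (1 of 10, against 0.658%). With only the 227 entries of highest −log10 q in each list, the numbers of genes with a place in both replicates were 1 in bisulfite and 0 in hmC-Seal libraries, and with pileups of at least 10 the conventional and hmC-Seal numbers were both 0. The conventional number was also 0 within 10 kb. A pileup is the number of fragments times a factor of the library, estimated at 0.708 and 0.8075 for conventional replicates 1 and 2. For the hmC-Seal replicates the factor was 0.809 and 1, so a pileup of 10 stands for different numbers of fragments. Places in at least 2 preparations, 6 with the whole lists, numbered 1 with lists of 227 entries, 3 within 10 kb and 3 without the replicate 1 libraries. Near these genes, hmC-Seal replicate 1 had 16 places and replicate 2 had 13, of which 6 were common to both, 37.5% and 46.2% of each. On all chromosomes these shares were 29.8% and 9.34%. The bisulfite libraries shared 2 of 7 and 5 places near the genes, 28.6% and 40%, against 36.5% and 50.4% on all chromosomes.

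**Figure D4:**
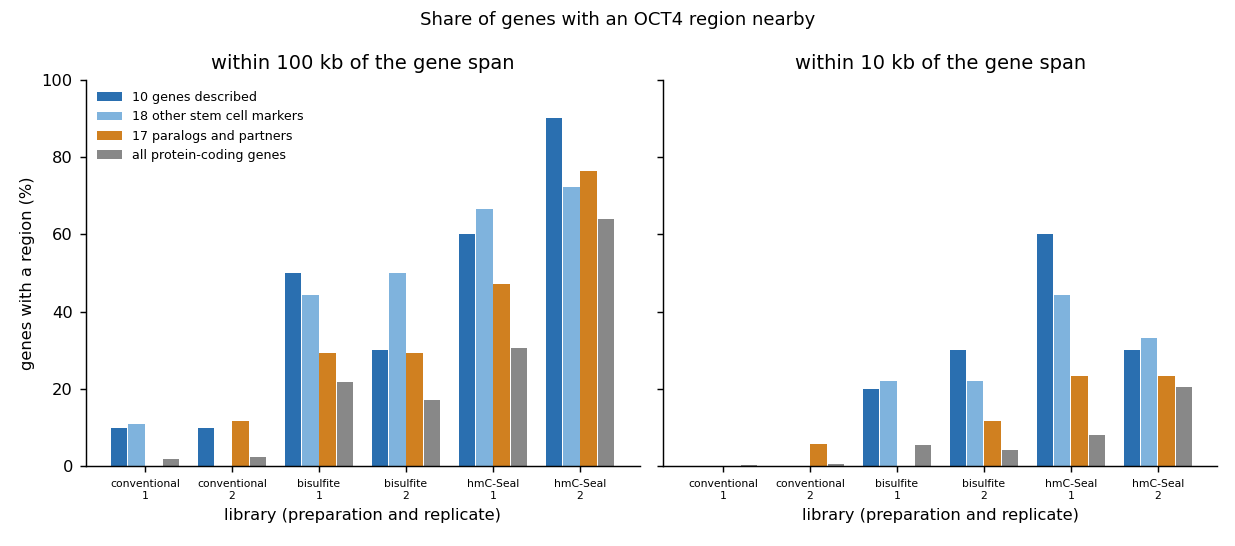
Percentage of genes with an OCT4 region within 100 kb (left) or 10 kb (right) of the gene span in each of 6 libraries, for the 10 genes described, 18 other stem cell markers, 17 paralogs and partners, and all 21887 protein-coding genes. Within 100 kb the bars of the 10 genes run from 10% to 90% and those of all protein-coding genes from 2.03% to 64.1%.

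Placed evenly over their chromosomes, the entries of hmC-Seal replicate 1 would number 3.03 in the joined windows of the 10 genes, and 18 were found, a ratio of 5.95 (exact Poisson 95% interval 3.52 to 9.40, counting error only). In hmC-Seal replicate 2 the 13 entries compared with 8.74, a ratio of 1.49 with an interval of 0.792 to 2.54, which includes 1. Bisulfite replicates 1 and 2 had 8 and 5 entries against 2.15 and 1.56, ratios of 3.72 (1.61 to 7.33) and 3.21 (1.04 to 7.50). Each conventional library had 1 entry, that of Jarid2, against 0.170 and 0.167, and intervals of 0.149 to 32.8 and 0.152 to 33.3. None of these intervals is a test of even placement. The genes were chosen with earlier results of these data known, and summits of the same region were counted as separate entries. The mean ratio was 5.93 ± 0.0711 in conventional, 3.47 ± 0.357 in bisulfite and 3.72 ± 3.15 in hmC-Seal libraries (SD, n = 2 each). The conventional mean rests on Jarid2 alone and is 0 with that gene left out. Since each conventional library had 1 entry, its SD reflects only the expected numbers of 0.170 and 0.167 and does not measure reproducibility. These means depend on the window: at 50 kb they were 10.2, 5.65 and 6.35 in conventional, bisulfite and hmC-Seal libraries, and at 10 kb 0, 7.62 and 10.7. They also depend on list length, being 6.31, 11.4 and 2.93 with 227 entries a list, so the order of the preparations is not fixed.

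Over all 6 libraries, 7 of the 10 genes had more entries than the density of their chromosome, against 43.8% of all protein-coding genes. Mycn had 11 entries against 1.45 and Jarid2 18 against 3.03, ratios of 7.58 and 5.93. Zfp42 (5 against 1.50) and Utf1 (4 against 1.45) followed, while Dppa4, Dppa5a and Tdh had 2 or 3 entries against 1.49 to 1.73. These sums weigh the longest lists most, and the order of the genes differed between preparations. In conventional libraries the ratio was 25.7 at Jarid2, from 2 entries, and 0 at the others. In bisulfite replicates 1 and 2 it was 8.71 and 6.27 at Mycn, 4.74 and 9.82 at Jarid2, and 5.16 and 6.81 at Utf1. At Zfp42 and Dppa4 it was 10.2 and 4.85 in bisulfite replicate 1 and 0 in replicate 2, and at the other genes it was 0 in both. In hmC-Seal replicate 1 it was 21.1 at Mycn, 10.7 at Jarid2, 7.35 at Zfp42, 6.25 at Dppa5a, 3.89 at Tdh and 3.47 at Utf1, and 0 at the others. In hmC-Seal replicate 2 it was 3.85 at Mycn and 2.54 at Jarid2, from 1.04 to 1.25 at the 7 other genes with an entry, which had 1 each, and 0 at Sall4. Most of these ratios rest on 1 or 2 entries, so the order of the genes is not firm. Over all 6 libraries Dppa2, Lin28a and Sall4 were below the density of their chromosome. Stretches that reads cannot be mapped to were not left out of the chromosome lengths, so the density is somewhat low and the ratios somewhat high.

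**Figure D5:**
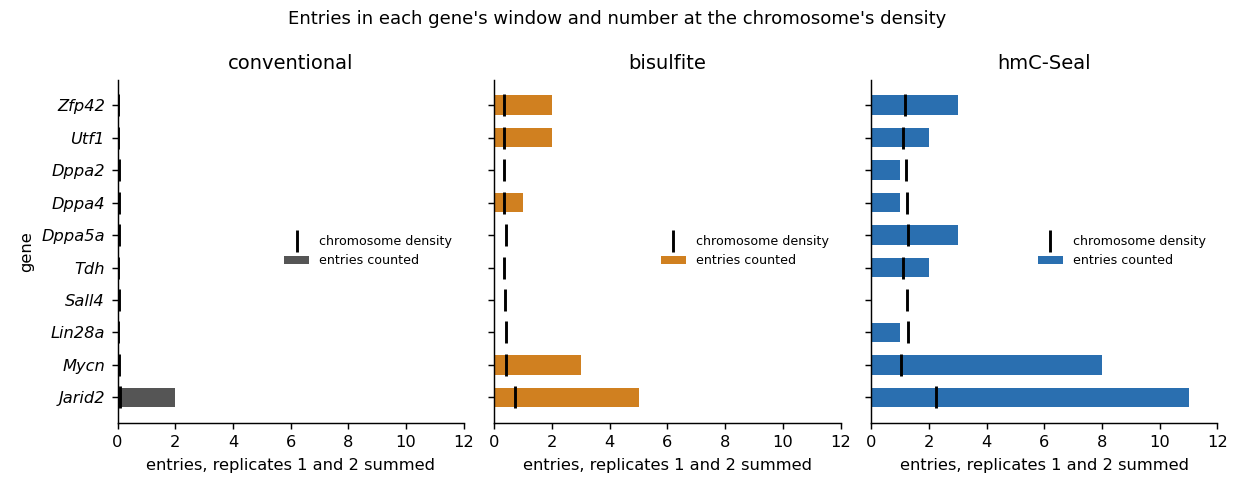
Number of entries in the window of each gene (bars, both replicates summed) and the number at the density of the gene's chromosome (black ticks), for the 3 preparations. The hmC-Seal bars pool unlike libraries: Mycn has 5 entries against 0.237 in replicate 1 and 3 against 0.78 in replicate 2, and Jarid2 7 against 0.653 and 4 against 1.58.

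Numbers of entries per gene were compared between preparations, to ask whether a locus was called more often in a modified context. At Jarid2 the conventional libraries had 1 and 1 entries, the bisulfite libraries 2 and 3, and the hmC-Seal libraries 7 and 4, without overlap between the preparations. At Mycn there were 0 and 0, 2 and 1, and 5 and 3, again without overlap. Both entries of bisulfite replicate 1 at Jarid2 lay in the place called in all 6 libraries. Counted by place, that library therefore had no more than the conventional libraries, and these preparations overlapped at Jarid2. Some entries of hmC-Seal replicate 1 at Jarid2 were further summits of the same region. The share of all genes without overlap among the 3 preparations was not counted. Both hmC-Seal libraries had more entries than both conventional libraries at 6 of the 10 genes, Zfp42, Utf1, Dppa5a, Tdh, Mycn and Jarid2, against 21.8% of all protein-coding genes. Both bisulfite libraries exceeded both conventional libraries at Utf1, Mycn and Jarid2 (3 of 10, against 8.94%), and both hmC-Seal libraries exceeded both bisulfite libraries at Dppa5a, Tdh, Mycn and Jarid2 (4 of 10, against 12.3%). The reverse order was seen at 0 of the 10 genes for each pair, and among all protein-coding genes it was rare too, at 0.064% for conventional above hmC-Seal, 0.119% for conventional above bisulfite and 0.777% for bisulfite above hmC-Seal. In a two-sided exact permutation test over libraries, these 13 of 30 comparisons reached p = 0.333, the smallest that 2 libraries against 2 allow, so that no difference could pass 0.05. Nothing in the labels says that the replicates came from separate cultures, so the spread between them may be technical. The conventional lists were also the shortest and the hmC-Seal lists the longest, and the part of list length in these numbers was not tested.

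Among 18 other stem cell markers, including Dppa3, Gdf3, Trim28 and Mybl2, 2 and 0 had a region within 100 kb in the conventional libraries, 8 and 9 in the bisulfite libraries, and 12 and 13 in the hmC-Seal libraries. A place in at least 2 preparations lay near 9 of them (50%) and a place in all 6 libraries near 0. Dppa3 and Gdf3 are neighbours that share all 4 of their places, so these places count for both genes in the numbers above. Among 17 paralogs and partners of the genes, such as Lin28b, Myc, and the Polycomb genes Ezh2, Eed, Suz12 and Mtf2, the numbers were 0 and 2, 5 and 5, and 8 and 13, with a place in at least 2 preparations near 6 (35.3%). For all protein-coding genes, the shares by library were 2.03% and 2.32%, 21.8% and 17.3%, and 30.6% and 64.1%. A place in at least 2 preparations lay near 15.1% of all protein-coding genes and a place in all 6 libraries near 0.658%. In hmC-Seal replicate 2, the shares of these markers and partners, 72.2% and 76.5%, were near the 64.1% of all genes. Sall1, a paralog of Sall4, had no entry in any of the 6 lists, nor had Dis3l2, Gcat and Shmt2. Gldc, which encodes the glycine decarboxylase that acts downstream of threonine breakdown, had a place called in 5 libraries.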

How the data were processed

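The authors aligned conventional reads with Bowtie2 2.4.1 and the others with Bismark 0.22.3 to GRCm38, kept short fragments and called summits in each library against IgG with MACS 2, without spike-in calibration. The deposited fold is the authors' ratio of summit pileup to background, taken here as computed with 1 added to both. It is therefore smaller than the plain ratio. The authors' caller also gave −log10 of p and of q for each summit, and a score that the authors' lists derive from q. The smallest −log10 q listed is 1.31. Positions are written from 1. Gene spans and promoters came from RefSeq (GRCm38.p6), and strands from the promoter table or, by symbol, from GENCODE M1. Chromosome lengths were the last positions in the lists or gene table. Fragments were recovered from fold and p with the Poisson formula of MACS 2, for 96.6% to 99.7% of the entries of a library, and are estimates. A solution was kept where it came within 0.02 fragments of a whole number, with 0.001 of the pileup added. Several solutions were left for 5.58% to 7.57% of the recovered entries of a bisulfite or hmC-Seal library and for 23.5% and 28.5% of those of the conventional libraries. Members and gene lists were chosen with earlier results of these data known. Places called in at least 2 libraries are given in full and, for a gene with none, that of highest −log10 q. The octamer search, the comparisons of numbers of entries with all protein-coding genes, the shares of places near gene starts and outside genes, and the alternative without Jarid2 were added after the data were seen. Python 3.11.15, numpy 2.4.6, pandas 2.3.3, scipy 1.17.1 and matplotlib 3.10.9 were used.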

Additional observations from a re-analysis of the deposited data

How the results depend on the processing

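With a window of 10 kb, genes with a place in both replicates numbered 0 in conventional and 1 in bisulfite libraries, places in at least 2 preparations 3, and the ratio to the chromosome density was 0, 7.62 and 10.7 in conventional, bisulfite and hmC-Seal libraries. A window of 50 kb gave ratios of 10.2 in conventional, 5.65 in bisulfite and 6.35 in hmC-Seal libraries. With −log10 q of at least 3 these were 6.45, 4.17 and 3.72. With lists of equal length they were 6.31, 11.4 and 2.93, genes with a place in both replicates numbered 1 in bisulfite and 0 in hmC-Seal libraries, and 1 place was in at least 2 preparations. With pileups of at least 10, genes with a place in both replicates numbered 0 in conventional and 0 in hmC-Seal libraries, and the conventional ratio was 6.11. It was 6.09 with 1 entry per region. Without Jarid2, the conventional number of genes and ratio were 0 and 0, and the bisulfite ones 1 and 2.53. The cause of these shifts was not tested beyond what fewer entries or genes give. In the remaining library alone, with replicate 1 or 2 left out, genes with a place ranged from 3 to 5 in bisulfite and from 6 to 9 in hmC-Seal libraries, the hmC-Seal ratio from 1.49 to 5.95, and places in at least 2 preparations from 3 to 4. Of the alternative values of these results, 26 moved and 51 counted as unmoved, ratios when they shifted by less than the SD between replicates and numbers when they stayed within 1.5 times. For the hmC-Seal ratio that SD was 3.15, so that 6.35 and 2.93 counted as unmoved from 3.72. For the conventional ratio it was 0.0711, so that 6.09 and 6.11 counted as moved from 5.93. With 2 replicates, leaving 1 out always shifts a mean ratio by less than the SD. Such ratios, as 1.49 and 5.95 in hmC-Seal libraries, could therefore only count as unmoved and say nothing of stability. Of 63 alternative values of differences in entries per gene that were not 0, 55 kept their sign and 8 went to 0, all 8 with a replicate left out. Of 27 for differences of 0, 25 stayed there and 2 did not.

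With the replicate number as a replicate block, the mean paired difference in entries equalled the unpaired one, for example 4.5 at Jarid2 for hmC-Seal minus conventional, and the smallest p that 2 pairs allow is 0.5 (exact sign-flip test). The median of 5 fragments behind an entry limits hmC-Seal replicate 2. The labels do not say that equal numbers mark a shared culture. The sample table of the study names the same pools, 1 and 2, for conventional and bisulfite libraries and no pool for hmC-Seal libraries, and what a pool holds is not given in the sources used here.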
